A study of Homo sapiens with 3 samples.

Results

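Bulk RNA from a library labelled OLFM4-active was compared with bulk RNA from the OLFM4-wild library, 2 of the 3 libraries of the series, with the OLFM4-knockout library set beside them. All 3 came from RWPE1, an immortalized human prostate epithelial cell line of basal character that is grown as a flat culture in prostate epithelium medium. The groups differ in OLFM4 genotype as labelled: wild type, knock out and active. Per the methods of the study, cells that carry a GFP reporter were sorted for GFP before RNA was taken, knockout cells were made as clones with paired nickase plasmids, and CRISPR activation plasmids were used for the GFP reporter of OLFM4-wild cells. How the cells labelled active were made is not given in the sources used here. There was 1 library per condition, so no spread between replicates could be estimated, no test was run, and every value compares libraries, not conditions.

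Levels are given in CPM, counts scaled to a common library size after TMM scaling of the library sizes, and differences as log2 ratios of the active-labelled over the wild library. The range in parentheses after a ratio is its exact 95% counting interval, which covers counting error only. The table held 58037 genes, and 16600 of them, 12795 protein-coding, averaged 1 CPM or more across the libraries and were kept. A gene could pass this filter through 1 library where it is high, which favours a call in that direction. The counts summed to 16309906 in the wild, 58837147 in the knockout and 23224216 in the active-labelled library, so 3 counts, taken as the floor, equal 0.165 CPM in the wild and 0.126 CPM in the active-labelled library. In bulk RNA, fewer cells of a type and less RNA per cell cannot be told apart.

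OLFM4 encodes olfactomedin 4, a secreted glycoprotein that marks stem and progenitor cells of several epithelia and is known for roles in innate immunity. Basal epithelial cells in culture carry KRT5, KRT14 and TP63 and can divide or leave the cycle and stratify. Stratifying cells switch to suprabasal keratins and then make the cornified envelope, a shell of cross-linked proteins such as filaggrin and the small proline-rich proteins. Growth in such cells is driven by ligands of the EGF receptor, by AP-1 factors and by MYC, which promotes the building of ribosomes.

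The gene named in the label was lowest in the active-labelled library. OLFM4 spans bases 53028813 to 53052057 of chromosome 13 (GRCh38, plus strand). It had 214 counts in the wild, 131 in the knockout and 16 in the active-labelled library, which equal 11.8 CPM (10.3 to 13.5), 2.55 CPM (2.13 to 3.03) and 0.670 CPM (0.383 to 1.09), and these intervals do not overlap. Against the wild library, the log2 ratio was -4.10 (-4.97 to -3.40) in the active-labelled library and -2.20 in the knockout library. The level goes against the label, and every direction below is that of the library labelled active, not of OLFM4 activation. Of the neighbouring genes within 2 Mb, SUGT1 had a log2 ratio of 0.27 (0.16 to 0.37), VPS36 of 0.46 (0.33 to 0.60), INTS6 of -0.16 (-0.24 to -0.07) and CKAP2 of -0.55 (-0.62 to -0.47). The lowest kept neighbour was the antisense gene INTS6-AS1, at -1.35 (-1.85 to -0.88).

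**Figure D1:**
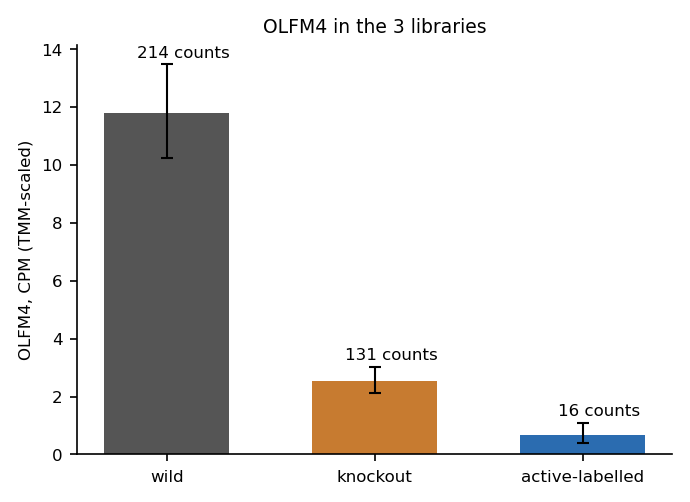
OLFM4 in the wild, knockout and active-labelled libraries, as TMM-scaled CPM on a linear axis, with exact 95% counting intervals as error bars and the counts above each bar. The active-labelled library sits lowest, at 0.670 CPM, against 11.8 CPM in the wild library.

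The stretch before the OLFM4 start is shown because CRISPR activation acts on promoters. It covers the 250 bases before the start in RefSeq, at chr13:53028563-53028812 of GRCh38.p14 on the plus strand. The capitals mark its match to TGANTCA, the letters used here for an AP-1 site. Since N stands for any base, this is a loose form of such a site.
OLFM4: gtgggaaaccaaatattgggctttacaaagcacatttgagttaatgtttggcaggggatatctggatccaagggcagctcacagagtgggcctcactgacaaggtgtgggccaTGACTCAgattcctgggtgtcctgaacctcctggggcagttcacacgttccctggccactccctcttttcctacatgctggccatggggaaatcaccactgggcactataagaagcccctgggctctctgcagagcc
A match is a description of letters on either strand, not of binding. The stretch also holds, in small letters, the bases of an activation guide listed in the methods of the study. Whether the cells labelled active received that guide is not given in the sources used here.

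Over all genes kept, more lay past 2-fold on the low side than on the high side. A log2 ratio above 1 was found for 627 genes, 3.78% of those kept, and below -1 for 1117 genes, 6.73%. At a mean of 10 CPM or more the sides were nearly equal, at 249 genes (2.35%) above 1 and 264 (2.49%) below -1. The excess on the low side thus lay among genes at lower levels. For 246 genes (1.48%) the whole counting interval exceeded 1, and for 530 (3.19%) it stayed under -1. The median log2 ratio was 0.05, with quartiles of -0.31 and 0.35. With library totals in place of TMM every log2 ratio was lower by the same amount, a shift of -0.11, and the same genes split into 480 above 1 and 1387 below -1, so that 25.7% of those past 2-fold were higher, against 36.0% with TMM. Of the protein-coding genes, 318 were above 1 and 838 below -1. The knockout library, read against the same wild library, had 957 genes (5.77%) above 1 and 1255 (7.56%) below -1. By chromosome, medians of protein-coding genes ran from -0.08 on chromosome 15 to 0.20 on chromosome 13. Genes past 2-fold were not evenly spread. Of 430 on chromosome 15, 43 were below -1 and 4 above 1, and of 205 on chromosome 13, 8 were below -1 and 8 above 1.

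**Figure D2:**
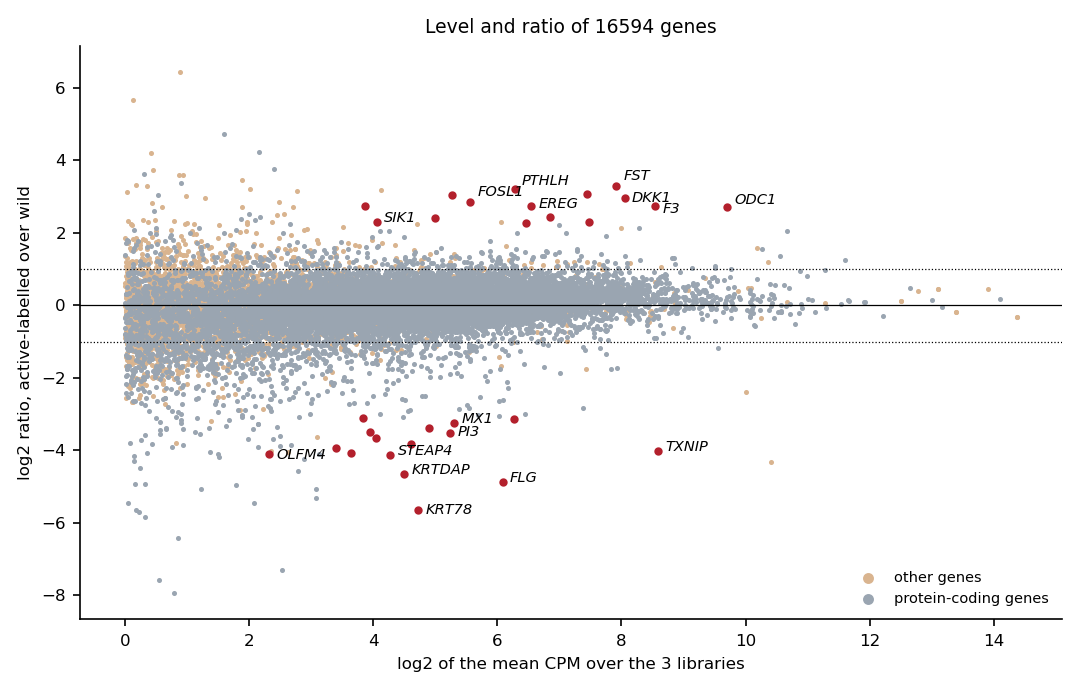
Log2 ratio of the active-labelled over the wild library against the log2 of the mean CPM over the 3 libraries, for 16594 genes (chromosome Y and XIST are not drawn), with dotted lines at log2 ratios of 1 and -1. Red points are OLFM4 and the 15 protein-coding genes with the highest and the 15 with the lowest ratios averaging 10 CPM or more, from FST at 3.30 to KRT78 at -5.66.

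Genes of the cornified envelope were the list with the lowest median among those with more than 3 members kept. Of its 33 members kept, of 37 in the table, 23 had a log2 ratio below -1 and 0 above 1, and the median was -2.52. FLG, which encodes the filaggrin precursor that binds keratin filaments, had 191 CPM in the wild and 6.49 CPM in the active-labelled library, a log2 ratio of -4.88 (-5.12 to -4.65) or 29.4-fold. FLG2, its relative, had 436 counts against 14, a log2 ratio of -5.31 (-6.24 to -4.59). KRTDAP, a small secreted protein of differentiating keratinocytes, had 61.3 against 2.43 CPM, a log2 ratio of -4.65 (-5.06 to -4.28). CASP14, the caspase that helps to process filaggrin, had 189 against 21.3 CPM (-3.14, -3.28 to -3.01). CRNN, cornulin, had 93 counts in the wild and 0 in the active-labelled library, at least 40.8-fold lower at the floor of 3 counts. SPRR3, a small proline-rich protein, had 97 counts against 1, with a log2 ratio of -6.42 (-12.31 to -4.48). FLG2, CRNN and SPRR3 were under 1 CPM in both other libraries and were kept through the wild library alone. Such members could only be called low, and their number among the 23 was not counted.

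The envelope's scaffold and its cross-linking enzyme differed far less than these late genes. PPL, periplakin, had a log2 ratio of 0.37 (0.33 to 0.42). TGM1, the transglutaminase that cross-links the envelope, had 177 against 157 CPM (-0.18, -0.25 to -0.11). IVL, involucrin, had 199 counts against 226, and its interval of -0.49 to 0.07 includes 0.

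Several protease inhibitors, lipid enzymes and adhesion genes of the same layers were also low. PI3, the elastase inhibitor elafin, had 98.7 CPM in the wild and 8.62 CPM in the active-labelled library (-3.51, -3.73 to -3.31). SPINK5, which restrains the kallikreins of the outer layers, had a log2 ratio of -2.52 (-2.67 to -2.38). Of 5 kallikreins kept, 2 were below -1 and 1 above 1: KLK7 was at -2.95 (-3.74 to -2.29), KLK5, also of the outer layers, at -0.04 (-0.32 to 0.24) and KLK10 at 1.16 (0.91 to 1.42). DSC1, a desmosomal cadherin of upper layers, had 28.5 against 1.84 CPM (-3.93, -4.43 to -3.50), whereas PKP2, a plakophilin of desmosomes, was higher at 1.31 (1.19 to 1.42). Among the barrier lipid genes, 4 of 18 were below -1 and 0 above 1, with CYP4F22, an enzyme of acylceramide synthesis, at 58 counts against 2 (-4.94, -8.33 to -3.34) and ALOX12B, a lipoxygenase, at -2.54 (-2.98 to -2.15). CYP4F22 was kept through the wild library alone. Of 14 S100 proteins kept, 5 were below -1 and 2 above 1, with a median of 0.19. S100A8 and S100A9, the calprotectin subunits, had log2 ratios of -3.06 (-3.21 to -2.92) and -2.83 (-2.92 to -2.75), and S100A3 was at 1.65 (1.20 to 2.14). Of the mucins, MUC16 was at -3.65 (-4.00 to -3.34) and MUC15 at -3.09 (-3.76 to -2.53). EHF and ELF3, epithelial ETS factors, were at -3.10 (-3.36 to -2.85) and -2.10 (-2.40 to -1.82).

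The promoters of 4 envelope genes are shown where they match TGANTCA, a match that 14 of the 25 envelope genes with a RefSeq promoter hold, 56%, against 7.73% of all 27195 promoters and 4.78% of those of genes kept. The stretches lie at chr1:152325297-152325333 on the minus strand (FLG), chr1:152414335-152414371 on the minus strand (CRNN), chr1:153001564-153001600 on the plus strand (SPRR3) and chr1:152908408-152908444 on the plus strand (IVL) of GRCh38.p14, with the match in capitals.
FLG: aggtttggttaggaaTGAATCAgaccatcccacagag
CRNN: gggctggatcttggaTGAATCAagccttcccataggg
SPRR3: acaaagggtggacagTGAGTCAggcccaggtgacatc
IVL: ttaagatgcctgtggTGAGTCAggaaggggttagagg
The same letters stand before genes that were low (FLG, CRNN and SPRR3) and before IVL, whose interval includes 0.

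Most keratins of suprabasal cells and of activated epithelium were lower than in the wild library. Of 16 kept, 13 had a counting interval wholly below 0 and 3 wholly above, 7 were below -1 and 0 above 1, with a median of -0.73. The highest was KRT9, a keratin of palm and sole skin, at 0.61 (0.08 to 1.18). The widest gap of all coding genes at 10 CPM or more was KRT78, a type II keratin of stratified epithelia at bases 52837804 to 52849092 of chromosome 12, with 709 counts in the wild and 18 in the active-labelled library, a log2 ratio of -5.66 (-6.46 to -5.02) or 50.4-fold lower. KRT1, the type II keratin of early differentiation, had 463 against 137 CPM (-1.75, -1.81 to -1.69), and its partner KRT10 had 1217 against 842 CPM (-0.53, -0.56 to -0.50). KRT6B, a keratin of activated cells, had 179 against 49.3 CPM (-1.86, -1.96 to -1.76), but KRT6A had a log2 ratio of 0.10 (0.09 to 0.12). The KRT6 genes are near-identical, so the authors' counting of uniquely mapped pairs may split them unevenly.

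**Figure D3:**
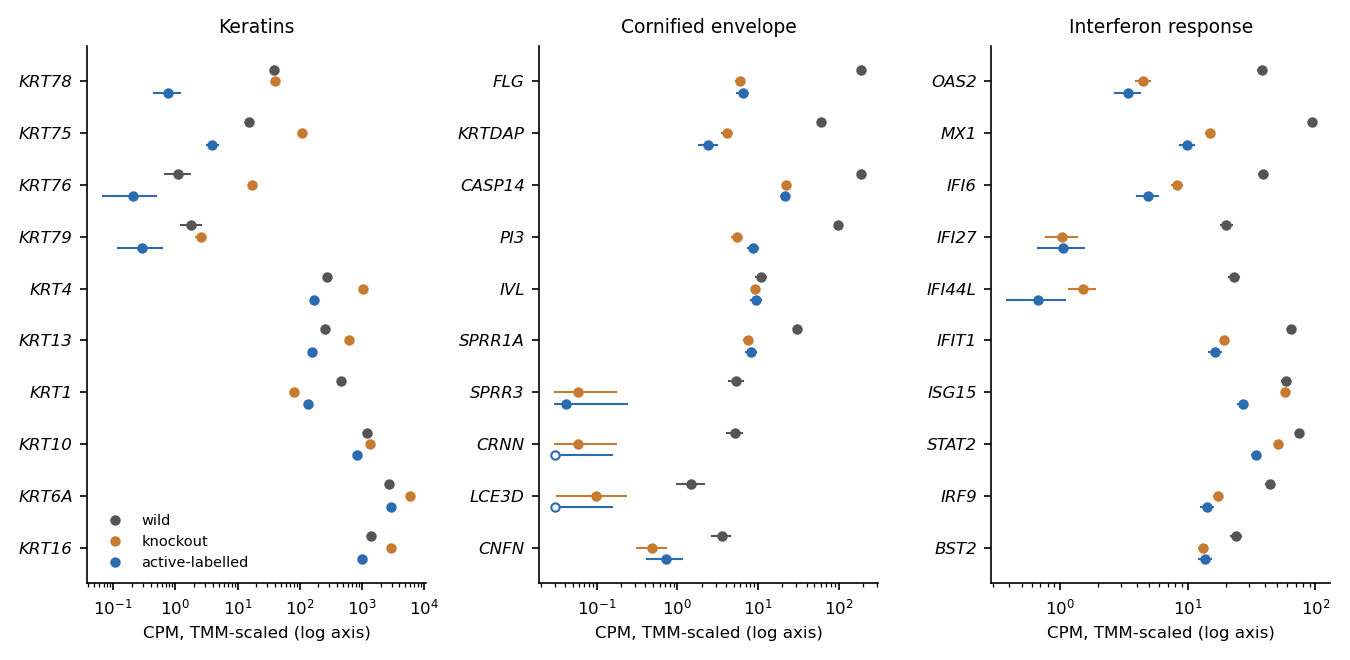
CPM on a log axis in the wild, knockout and active-labelled libraries for 10 keratins, 10 cornified envelope genes and 10 interferon response genes, with exact 95% counting intervals as bars. Open points at the left edge of the envelope panel are genes with 0 counts, the active-labelled points for FLG and MX1 lie far left of the wild ones, and the wild and knockout points for KRT78 lie together at 39.0 and 39.8 CPM.

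Genes of the interferon response were low. In this pathway, IRF9 and STAT2 are parts of a complex that binds the interferon-stimulated response element (ISRE) of its target genes. All 49 members kept of the type I interferon list, of 50 in the table, had a counting interval wholly below 0, against 28.1% of all genes kept, and 33 lay below -1, with a median of -1.31. IFI44L had 420 counts in the wild and 16 in the active-labelled library, a log2 ratio of -5.07 (-5.93 to -4.39). IFI27 had 20.1 against 1.05 CPM (-4.24, -4.91 to -3.68). The antiviral effectors MX1, a GTPase, and OAS2, which makes an RNase activator, had 93.8 against 9.92 CPM (-3.24, -3.44 to -3.04) and 38.4 against 3.39 CPM (-3.49, -3.85 to -3.17).

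Of the signalling proteins of the pathway, STAT2 and IRF9 differed less than IFI44L, IFI27, MX1 and OAS2, which lie below the list's lower quartile of -2.34. STAT2 had a log2 ratio of -1.12 (-1.25 to -1.0) and IRF9 of -1.63 (-1.82 to -1.45), on either side of the list median of -1.31. Of the class I antigen presentation genes, 1 of 17 was below -1, HLA-B at -1.27 (-1.40 to -1.13), and B2M, the light chain of class I molecules, was at -0.77 (-0.81 to -0.73).

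The ISRE letters, GAAA followed by any 2 bases and GAAA, searched on both strands, stood in 25 of the 39 interferon genes with a RefSeq promoter, 64.1%, against 3.65% of all promoters of the same length. Stretches of 3 low genes are shown, with each match in capitals, at chr1:27672261-27672363 on the minus strand (IFI6), chr1:78620269-78620399 on the plus strand (IFI44L) and chr14:94110613-94110665 on the plus strand (IFI27) of GRCh38.p14.
IFI6: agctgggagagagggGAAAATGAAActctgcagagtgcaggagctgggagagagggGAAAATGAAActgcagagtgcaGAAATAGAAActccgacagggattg
IFI44L: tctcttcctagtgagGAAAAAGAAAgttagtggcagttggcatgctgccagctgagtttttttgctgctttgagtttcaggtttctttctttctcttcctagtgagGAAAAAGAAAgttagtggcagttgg
IFI27: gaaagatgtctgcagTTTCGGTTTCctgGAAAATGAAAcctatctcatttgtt
IFI6, with 3 matches before its start, had 38.9 CPM in the wild and 4.85 CPM in the active-labelled library (-3.00, -3.30 to -2.72). Among all genes below -1, 4.77% of 713 promoters held the letters, and among those above 1, 3.24% of 278.

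Inflammatory genes gave a mixed picture with most members low. Of 27 NF-kB targets, cytokines and chemokines kept, of 43 in the table, 16 were below -1 and 0 above 1, with a median of -1.10. BIRC3, an inhibitor of apoptosis induced by NF-kB, had 75.1 against 7.12 CPM (-3.40, -3.64 to -3.17). NFKBIA, the inhibitor that NF-kB induces to close its own loop, had 132 against 30.3 CPM (-2.12, -2.24 to -2.0). C3, the central complement component, was at -2.51 (-2.73 to -2.30) and SAA1, an acute-phase protein, at -2.92 (-3.49 to -2.42). On the other side, the cytokines IL1B and IL18 were at 0.71 (0.43 to 0.99) and 0.47 (0.38 to 0.56).

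Genes of stress and nutrient responses included some of the lowest ratios at high expression. TXNIP, which binds thioredoxin and limits glucose uptake, had 954 CPM in the wild and 58.4 CPM in the active-labelled library (-4.03, -4.11 to -3.95). Of 22 hypoxia response genes, 8 were below -1 and 1 above 1, with a median of -0.62. EGLN3, a prolyl hydroxylase that marks HIF proteins for removal, had 356 counts against 19 (-4.59, -5.37 to -3.96), and CA9, a carbonic anhydrase, 308 against 50 (-3.01, -3.48 to -2.58). EGLN3 was kept through the wild library alone. ADM, adrenomedullin, was the member above 1, at 1.15 (1.0 to 1.32).

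Of 26 genes of the ATF4 and amino acid response, 7 were below -1 and 1 above 1, with a median of -0.27. The genes named here were chosen after their values were seen. CHAC1, which degrades glutathione, was at 594 counts against 46 (-4.07, -4.55 to -3.65), SESN2, a brake on mTORC1, at -2.32 (-2.57 to -2.08) and DDIT3, the factor CHOP, at -1.64 (-1.83 to -1.45). SLC7A11, the cystine transporter, was the member above 1, at 1.23 (1.16 to 1.30), with SLC7A5, a leucine transporter, at 0.95 (0.93 to 0.97) and ASNS, asparagine synthetase, at 0.78 (0.70 to 0.86).

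Several inhibitors of the cell cycle were low, as were E2F1 and E2F2, while S phase genes as a group were near their wild level. Of 21 G1 cyclins, CDK inhibitors and their regulators, 5 were below -1 and 1 above 1. CDKN2B, a CDK inhibitor induced by TGF-beta, had 149 against 24.6 CPM (-2.60, -2.73 to -2.47), and CDKN1B was at -1.43 (-1.63 to -1.22). E2F2 and E2F1, which are not inhibitors, were also low, at -1.55 (-1.77 to -1.34) and -0.64 (-0.78 to -0.50). CCND1, a cyclin of G1, had 93.8 against 197 CPM (1.07, 0.99 to 1.15). Of 61 S phase genes, 1 was below -1, CDT1 at -1.09 (-1.21 to -0.98), and 0 above 1, with a median of 0.04 that became -0.07 with library totals. Of 59 genes of G2 and mitosis, 4 were below -1 and 0 above 1, near the share of 6.73% below -1 over all genes kept. Their median was -0.38, and 46 had a counting interval wholly below 0, against 28.1% of all genes kept. HJURP and CENPA, which build the centromere, were at -1.33 (-1.47 to -1.18) and -1.16 (-1.39 to -0.93). Replication-dependent histone genes had a median of -0.49 over 61 members, of which 5 were below -1.

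On the high side were EGF receptor ligands and feedback genes of the ERK pathway. Of 25 kept, of 28 in the table, 7 were above 1 and 0 below -1, with a median of 0.46. EREG, epiregulin, had 22.2 CPM in the wild and 149 CPM in the active-labelled library (2.75, 2.60 to 2.90), and AREG, amphiregulin, had 93.8 against 240 CPM (1.35, 1.28 to 1.43). The receptor EGFR itself had a log2 ratio of 0.18 (0.16 to 0.20), and ERBB3, a related receptor, of -0.63 (-0.77 to -0.50). Among the phosphatases that end ERK signals, DUSP4 and DUSP5 were at 1.18 (1.05 to 1.30) and 1.21 (1.09 to 1.33), but for DUSP6 the interval, -0.01 to 0.19, includes 0. SPRED2, an inhibitor of the pathway, was at 1.34 (1.20 to 1.49), whereas SPRY2, another, was at -0.35 (-0.68 to -0.01).

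Of the AP-1 and immediate early genes, 5 of 26 were above 1 and 1 below -1. FOSL1, an AP-1 subunit, had 11.7 against 84.6 CPM (2.86, 2.65 to 3.07), FOSB was at 1.25 (1.17 to 1.33) and JUND at 1.09 (0.96 to 1.23). Genes with AP-1 letters in the promoter were 8.63% of the 278 promoters of genes above 1 and 7.85% of the 713 of genes below -1. In the list of EGF ligands and ERK feedback genes, 1 of 18 promoters held them, 5.56%, against 4.78% of those of genes kept. F3 and FST, among the highest ratios, were picked by hand, to be shown only where these letters were found. Other genes with high ratios are not shown. Their letters lie at chr1:94541948-94541997 on the minus strand (F3) and chr5:53480454-53480490 on the plus strand (FST) of GRCh38.p14.
F3: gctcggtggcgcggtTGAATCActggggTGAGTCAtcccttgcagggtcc
FST: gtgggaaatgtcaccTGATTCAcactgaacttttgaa
F3, tissue factor, which starts blood coagulation, had 85.9 against 578 CPM (2.75, 2.67 to 2.83). FST, follistatin, which binds activins, had 42.5 against 420.0 CPM (3.30, 3.20 to 3.41), the highest ratio among coding genes averaging 10 CPM or more.

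**Figure D4:**
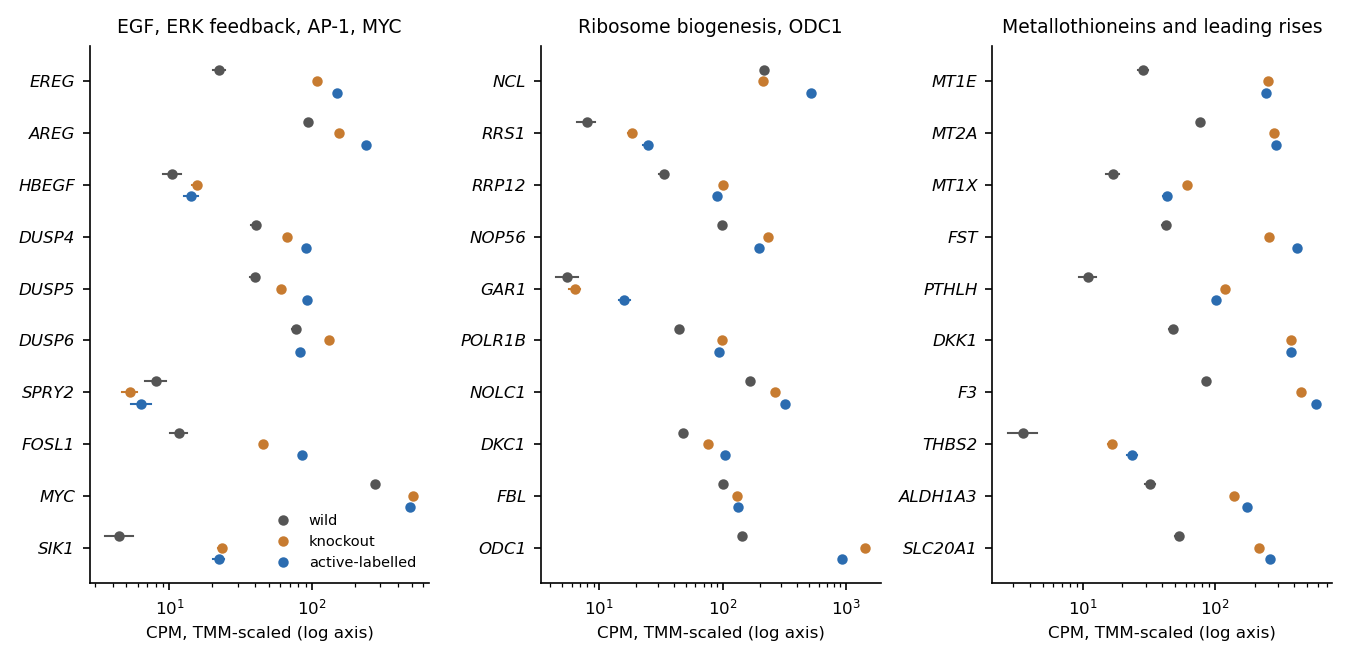
CPM on a log axis in the wild, knockout and active-labelled libraries for growth-signal genes, ribosome biogenesis genes with ODC1, and the metallothioneins with other high genes, with exact 95% counting intervals as bars. In most rows the active-labelled point lies right of the wild point, as for FST at 420.0 against 42.5 CPM, and DUSP6 and SPRY2 are exceptions.

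Secreted regulators outside the growth lists differed in both directions. Of 30 BMP and TGF-beta pathway genes kept, 3 were above 1 and 4 below -1, with a median of -0.25. INHBA, the activin A subunit that follistatin binds, had 198 counts in the wild and 24 in the active-labelled library (-3.41, -4.12 to -2.82). DKK1, an inhibitor of WNT signals, had 872 counts against 8945 (2.96, 2.86 to 3.07), and ID2, a target of BMP signals, was at -2.58 (-2.83 to -2.35). PTHLH, parathyroid hormone-like hormone, had 10.9 against 102 CPM (3.22, 3.01 to 3.44). The antisense transcript ENSG00000257042 inside PTHLH held 22.7, 22.6 and 22.5 counts per 100 of PTHLH in the wild, knockout and active-labelled libraries. STC2, stanniocalcin 2, was at -1.40 (-1.53 to -1.27), SPARC, a matrix glycoprotein, at -1.71 (-1.85 to -1.57) and WNT5A at -0.91 (-1.17 to -0.65). Of 16 matrix metalloproteinases and inhibitors, with a median of -0.05, 3 were above 1 and 0 below -1. These were MMP1, with 3 counts against 121 (4.72, 3.36 to 7.24), MMP3, with 5 against 134 (4.22, 3.09 to 6.0), and ADAMTS1, with 12 against 222 (3.76, 2.98 to 4.79). MMP1 was at the floor of 3 counts in the wild library. All 3 had under 1 CPM there and were kept through the libraries where they are high, so their calls are no evidence of a rise in the list.

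MYC-linked growth genes were higher as groups. MYC itself had 274 CPM in the wild and 486 CPM in the active-labelled library, a log2 ratio of 0.83 (0.78 to 0.87), while MYCL, its paralog, was at -2.10 (-2.40 to -1.81). Of 75 MYC-induced genes, 22 were above 1 and 1 below -1, with a median of 0.56. ODC1, the entry enzyme of polyamine synthesis and a classic MYC target, had 144 against 938 CPM (2.70, 2.64 to 2.76), and TERT, another, went the other way, at -2.17 (-2.81 to -1.59). Of 82 ribosome biogenesis genes, all had a log2 ratio above 0 (77 with library totals), 20 were above 1 and 0 below -1, with a median of 0.71. RRS1, an assembly factor of the large subunit, had 7.87 against 24.6 CPM (1.64, 1.38 to 1.92), URB2 was at 1.46 (1.31 to 1.62) and RRP12 at 1.43 (1.30 to 1.56). NCL, nucleolin, was at 1.26 (1.21 to 1.31) and GAR1, a protein of the box H/ACA particles, at 1.53 (1.21 to 1.87). WDR74, at 1.55 (1.52 to 1.58), overlaps the snRNA gene RNU2-2P on the same strand, which had 9381 counts in the wild and 37167 in the active-labelled library, so its value is uncertain.

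The E-box letters CACGTG, which MYC and related factors read, stood in 23 of 68 ribosome biogenesis promoters, 33.8%, and in 24 of 62 MYC-induced ones, 38.7%, against 7.45% of all promoters and 10.1% of those of genes kept. Stretches of 3 ribosome biogenesis genes that hold these letters before the start are shown, with the match in capitals. They were not ranked against the whole list, so members with higher ratios may hold the letters too. The stretches lie at chr16:69132618-69132648 (UTP4), chr12:101280080-101280104 (UTP20) and chr17:51260442-51260477 (UTP18), all on the plus strand of GRCh38.p14.
UTP4: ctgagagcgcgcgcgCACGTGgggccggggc
UTP20: gttcttttttccgtcCACGTGaccc
UTP18: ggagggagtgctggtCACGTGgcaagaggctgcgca
These encode parts of the particle that processes the small-subunit ribosomal RNA, and their log2 ratios were 1.12 (1.01 to 1.24), 1.03 (0.92 to 1.14) and 0.98 (0.83 to 1.15).

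Small nucleolar RNAs guide the chemical modification of ribosomal RNA. Of 172 kept, of 470 in the table, 66 were above 1 and 2 below -1, and the median was 0.75. SNORD118, which helps to process ribosomal RNA, had 26 counts in the wild and 200 in the active-labelled library (2.52, 1.95 to 3.20). Spliceosomal snRNA genes had 29 of 43 above 1, with RNU5F-1 at 2.17 (1.79 to 2.58). As a share of all counts, small nucleolar RNA genes took 0.440% of the wild, 0.762% of the knockout and 0.679% of the active-labelled library. Genes of snRNAs took 2.50% of the wild, 2.54% of the knockout and 2.08% of the active-labelled library, so their summed share was lower in the active-labelled than in the wild library although 29 of the 43 kept were above 1. The part of these shares in the ratios of these genes was not tested. The lowest non-coding gene, ENSG00000281181 (bases 8437629 to 8438551 of chromosome 21), gave 68888 counts in the wild and 4553 in the active-labelled library (-4.31, -4.36 to -4.27). ENSG00000280614, which lies inside the same lncRNA gene of the opposite strand, ENSG00000280441, was 5.30-fold lower. Genes of chromosome 21 took 1.42% of all counts in the wild and 0.759% in the active-labelled library. The part of this share in the ratio was not tested.

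**Figure D5:**
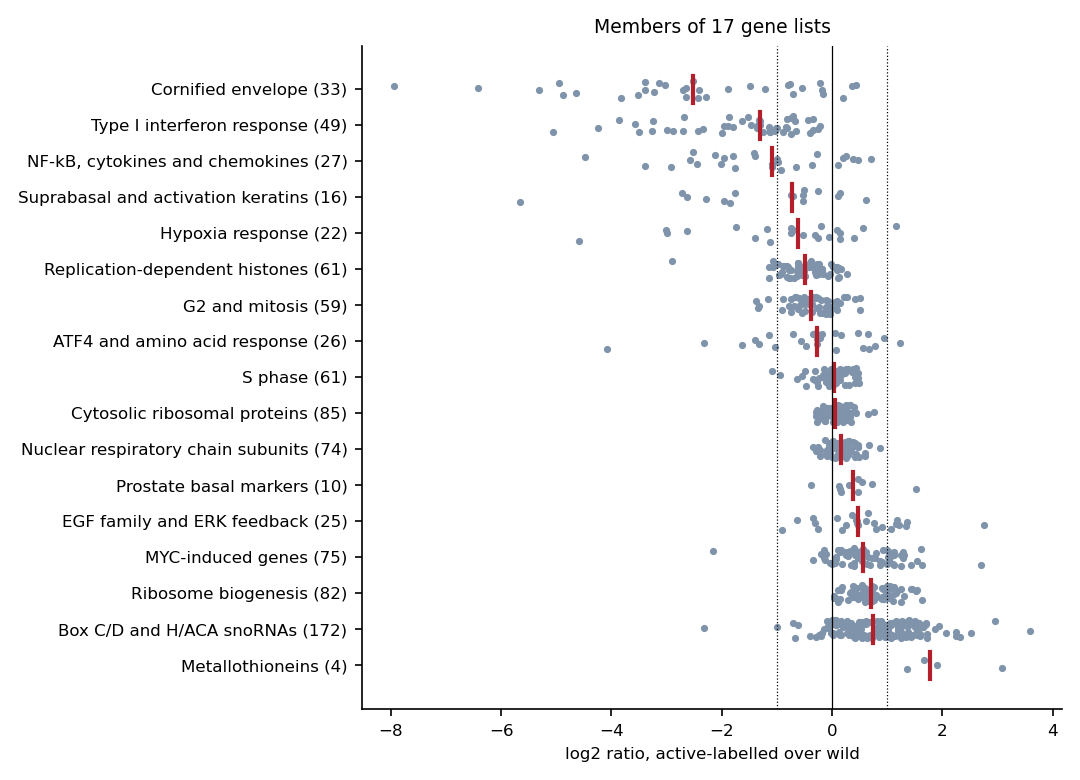
Log2 ratio of the active-labelled over the wild library for each kept member of 17 gene lists, with the median as a red bar, the number of members in parentheses and dotted lines at 1 and -1. The cornified envelope lies lowest, with a median of -2.52, and the metallothioneins highest, with a median of 1.79.

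The metallothioneins, small proteins that bind zinc and copper and are switched on by metals, were all above 1: 4 of 4 kept, of 11 in the table, with a median of 1.79. MT1E had 28.8 CPM in the wild and 243 CPM in the active-labelled library (3.08, 2.95 to 3.21), MT2A 76.8 against 288 CPM (1.91, 1.82 to 1.99) and MT1X 16.8 against 43.1 CPM (1.35, 1.17 to 1.54). MT1 genes are near-identical to each other, so counts may be split between them. The letters of the metal response element, TGCACNC or TGCGCNC, stood in both metallothioneins with a RefSeq promoter, MT2A and MT1X, and in 29.4% of all promoters, so they are common. The stretches, at chr16:56608334-56608583 (MT2A) and chr16:56682305-56682438 (MT1X) on the plus strand of GRCh38.p14, hold 7 and 4 matches, in capitals.
MT2A: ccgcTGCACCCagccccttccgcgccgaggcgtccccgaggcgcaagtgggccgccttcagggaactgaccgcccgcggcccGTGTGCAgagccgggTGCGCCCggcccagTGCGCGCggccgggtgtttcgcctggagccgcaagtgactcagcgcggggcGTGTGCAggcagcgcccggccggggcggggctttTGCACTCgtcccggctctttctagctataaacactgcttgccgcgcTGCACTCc
MT1X: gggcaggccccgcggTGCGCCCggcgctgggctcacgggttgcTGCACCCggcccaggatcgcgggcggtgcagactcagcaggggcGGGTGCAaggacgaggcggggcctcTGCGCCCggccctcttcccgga
Chaperones of the cytosol had a median of 0.42 over 22 members, with HSPA8, the constitutive HSP70, at 465 against 1912 CPM (2.04, 2.01 to 2.07) and HSPB8, a small heat shock protein, at -2.58 (-3.40 to -1.88). Of 28 NRF2 targets, which protect against oxidants, 4 were above 1 and 1 below -1, with TXNRD1, thioredoxin reductase, at 1.07 (0.99 to 1.15).

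Large protein complexes differed little. Of 85 cytosolic ribosomal proteins kept, 0 were above 1 or below -1 and the median was 0.06, which became -0.059 with library totals. The 74 nuclear respiratory chain subunits had a median of 0.17 and the 39 proteasome subunits of 0.28, with 0 past 2-fold in either direction in both lists. In the knockout library the same 3 lists had medians of 0.45, 0.71 and 0.60 against the wild library. Over 5 classes of coding genes of like number, ordered by exon length from the shortest to the longest, the median went from 0.33 to -0.11 in the knockout library and stayed between 0.02 and 0.06 in the active-labelled library, and the part of length in these medians was not tested.

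The labelled cell type was checked against its markers, and basal markers were near or above their wild level. Of the 10 basal markers, 1 was above 1 and 0 below -1, with a median of 0.38, and KRT15 alone lay below 0, at -0.38 (-0.46 to -0.30). KRT5, the basal type II keratin, had 12232 CPM in the wild and 13686 CPM in the active-labelled library (0.16, 0.15 to 0.17), its partner KRT14 was at 0.47 (0.46 to 0.48), and TP63, the master factor of basal cells, was at 0.12 (0.08 to 0.16). ITGA6 and ITGB4, the laminin receptor of hemidesmosomes, were at 0.47 (0.44 to 0.49) and 0.73 (0.71 to 0.76), CD44 was at 0.54 (0.50 to 0.57), and NGFR, a basal surface receptor, at 1.52 (1.07 to 2.03). Of the luminal markers, KRT8 was at -0.95 (-1.01 to -0.88) and KRT18 at -0.17 (-0.24 to -0.10), and KLK3 had 2 counts in the wild and 0 in the active-labelled library, under the floor in both. CD24 and PSCA, which the study uses as luminal progenitor markers, were at -0.64 (-0.71 to -0.58) and -2.05 (-2.76 to -1.42). VIM, an intermediate filament of mesenchymal cells, was at -1.34 (-1.40 to -1.28) and CDH1, the epithelial cadherin, at 0.35 (0.30 to 0.40).

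Markers of other cell types were scarce. The 12 fibroblast and smooth muscle markers summed to 58.4 CPM in the wild and 36.5 CPM in the active-labelled library, and COL3A1, DES and LUM had 0 counts in both. The 8 endothelial markers summed to 2.42 and 1.59 CPM, and CDH5 had 0 counts in both. The 12 leukocyte markers summed to 32.4 and 20.2 CPM, and PTPRC, CD3D, CD3E, MS4A1, LYZ and HBB had 0 counts in both. The 8 neuroendocrine markers summed to 14.1 and 5.73 CPM.

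Several of the widest gaps lay outside these programmes. On the low side were STEAP4, a metalloreductase, with 910 counts in the wild and 68 in the active-labelled library (-4.13, -4.51 to -3.78), SVEP1, an adhesion protein of the matrix, with 1125 against 103 (-3.84, -4.15 to -3.55), and TMEM45A, a membrane protein, with 620 against 94 (-3.11, -3.45 to -2.80). On the high side were AJAP1, a protein of adherens junctions, with 128 against 1397 counts (3.05, 2.79 to 3.33), THBS2, thrombospondin 2, with 64 against 567 (2.74, 2.38 to 3.15), and ALDH1A3, which makes retinoic acid, with 588 against 4176 (2.43, 2.31 to 2.56). SLC20A1, a phosphate transporter, was at 2.29 (2.19 to 2.39), CPA4, a carboxypeptidase, at 2.28 (2.13 to 2.42) and SIK1, a kinase induced by cAMP, at 2.31 (1.98 to 2.67). EIF3CL was at 2.41 (2.19 to 2.64) and its near-identical copy EIF3C, a translation initiation subunit, at -1.50 (-1.70 to -1.30), while the sum of both was at 0.55 (0.43 to 0.68), so neither value can be taken alone.

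Counts in the metabolic and remaining lists are to be read beside the shares over all genes kept, 3.78% above 1 and 6.73% below -1. Tight junction genes and p53 targets held more genes past 2-fold on the low than on the high side. Of 26 cholesterol genes, 1 was below -1, INSIG1, which restrains cholesterol synthesis, at -1.08 (-1.24 to -0.91), with a median of -0.33. The desaturases FADS2 and FADS1 were at -2.09 (-2.23 to -1.96) and -1.01 (-1.10 to -0.92). Of 30 nucleotide and one-carbon genes, 2 were above 1 and 0 below -1, with a median of 0.40, and of 20 aminoacyl-tRNA synthetases 2 were above 1, with a median of 0.38, EPRS1 at 1.08 (1.05 to 1.12) among them. SRM, spermidine synthase, was at 1.30 (1.14 to 1.45). Of 14 tight junction genes, 4 were below -1 and 0 above 1, among them CLDN1, the main claudin of stratified epithelia, at -1.75 (-1.86 to -1.64). Of 22 hemidesmosome and laminin genes, 1 was below -1 and 2 were above 1: ITGA2, a collagen receptor subunit, at 1.47 (1.37 to 1.56) and PLEC, which ties keratins to hemidesmosomes, at 1.24 (1.22 to 1.26). Of 28 p53 targets, 7 were below -1 and 0 above 1, with BBC3, the killer protein PUMA, at -2.39 (-2.91 to -1.92). Of 41 WNT targets and regulators, 3 were above 1 and 1 below -1, with a median of 0.12.

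The active-labelled and the knockout library were both read against the same wild library, so their ratios share its counting error and preparation, and they are given side by side only. FLG was at -4.88 in the active-labelled and -5.01 in the knockout library, DKK1 at 2.96 and 2.96, MX1 at -3.24 and -2.64, MT1E at 3.08 and 3.13, and MYC at 0.83 and 0.90. In the same order, list medians were -2.52 and -2.08 for the cornified envelope and -1.31 and -0.98 for the interferon response. They were 0.71 and 0.73 for ribosome biogenesis and 1.79 and 1.87 for the metallothioneins, but -0.73 and 0.56 for the suprabasal and activation keratins. Of the 627 genes above 1, 38 were at or below 0 in the knockout library, and of the 1117 below -1, 47 were at or above 0. The genes that follow were picked for a difference after their values were seen. KRT78 was at -5.66 in the active-labelled and 0.03 in the knockout library. Other keratins with such values lay in both keratin clusters. KRT75 had 277 counts in the wild, 5576 in the knockout and 94 in the active-labelled library, with log2 ratios of 2.83 in the knockout and -1.95 (-2.31 to -1.61) in the active-labelled library, and KRT76 had 20, 863 and 5 counts. KRT4 and KRT13, keratins of non-cornifying epithelium, were at 1.92 and 1.30 in the knockout but at -0.74 (-0.80 to -0.68) and -0.71 (-0.78 to -0.65) in the active-labelled library. KRT16 was at 1.06 in the knockout and -0.52 in the active-labelled library. Other keratins lay on the same side in both, such as KRT1, at -2.53 in the knockout and -1.75 in the active-labelled library, and KRT71, at 3.12 and 1.40. LY6D was at 2.18 in the knockout and 0.35 (0.27 to 0.43) in the active-labelled library.

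A further group was higher in the active-labelled library and near or below the wild level in the knockout library. SOX9, a progenitor factor, had 20.5 CPM in the wild, 20.4 in the knockout and 61.4 in the active-labelled library (1.58, 1.42 to 1.75). BCAT1, which starts the breakdown of branched-chain amino acids, had 8 counts in the wild, 2 in the knockout and 92 in the active-labelled library (3.05, 2.09 to 4.38). It was kept through the active-labelled library, where it is high, so only a rise could be called. ATIC, of purine synthesis, was at 1.30 (1.19 to 1.41) and -0.48 in the active-labelled and knockout libraries, and HSPA5, the main chaperone of the endoplasmic reticulum, at 1.06 (1.01 to 1.12) and -0.38. NCL was at 1.26 and -0.02. These genes were chosen for that contrast after their values were seen, and with 1 library per condition no test of it could be run.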

How the data were processed

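The deposited table holds whole-number counts per gene in 3 columns, 1 for each library of RWPE1 cells. Total RNA was depleted of ribosomal RNA, and stranded libraries were sequenced as read pairs. Per the labels and the methods of the study, the authors trimmed reads with cutadapt, aligned them to GRCh38 with HISAT2 and counted uniquely mapped, reversely stranded pairs with featureCounts, so pairs shared by near-identical genes are lost. The authors deposited the counts without normalization.

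The TMM method of edgeR 4.0.16 in R 4.3.3 scaled the library sizes, and log2 ratios were taken with an offset of 0.5 counts, as in voom. Intervals are exact conditional Clopper-Pearson intervals at 95%. A gene was counted as past 2-fold above a log2 ratio of 1 or below -1, which is no test. The procedure was run on simulated counts with known changes. Those counts held counting error only, so they cannot speak to spread between libraries. Names, types and positions are from GENCODE version 44, which matched 56993 of 58037 identifiers, and promoters, 250 bases before to 50 after the start, are from RefSeq on GRCh38.p14. Other steps used Python 3.11.15, numpy 2.4.6, pandas 2.3.3, scipy 1.17.1 and matplotlib 3.10.9.

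The libraries compared, the 56 gene lists and the tests were chosen with earlier results of these data known. Named are OLFM4, genes and markers the study names, the 15 protein-coding genes highest and the 15 lowest, and the 5 other genes each way, at a mean of 10 CPM or more, and up to 5 members of each list with the largest log2 ratios in size. Further list members were named after their values were seen. Some genes under this rule are not reported here. Alternatives were library totals, DESeq2 1.42.0 size factors, upper quartile factors, other offsets and filters, library sizes without the most abundant genes, thinned libraries and coding genes alone.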

Additional observations from a re-analysis of the deposited data

How the results depend on the processing

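The direction of OLFM4 was the same under each of the 9 other settings that gave it a value, with log2 ratios from -4.21 with library totals to -3.78 with an offset of 5 counts. A filter at a mean of 10 CPM leaves OLFM4 out, so it has no value there. The number of genes past 2-fold depended on the filter. With at least 1 count in either library and no other filter it was 4707 higher and 7134 lower, and with the filter at a mean of 10 CPM it was 249 higher and 264 lower. With protein-coding genes alone it was 318 higher, and the 838 lower lie within 1.5 times the 1117 of all genes. Under the other 8 settings both numbers stayed within 1.5 times, from 472 to 675 higher and from 1045 to 1408 lower. The median of the cytosolic ribosomal proteins turned to -0.059 with library totals, and under the filter at 10 CPM the medians of the olfactomedin family, glycolysis and tight junction lists turned to 0.17, 0.0065 and 0.014, where fewer members are left. Over all settings, 504 list medians stayed within the members' median counting interval, 41 moved beyond it with the same direction or with an interval that includes 0, and 4 turned, while for the named genes 2682 ratios stayed within their interval and 95 moved beyond it, with none turned. No paired analysis was possible because there was 1 library per condition. Depth limits genes near 3 counts, and the wild library, at 16309906 counts, is the shallowest.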
